A study of Mus musculus with 29 samples.

Results

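The transcripts described here encode the heterogeneous nuclear ribonucleoproteins (hnRNPs), the serine/arginine-rich (SR) splicing factors and the core proteins of the small nuclear ribonucleoproteins (snRNPs). They were chosen by name, as gene symbols that begin with Hnrnp, Hnrp, Srsf, Sfrs or Snrp in a table of poly(A) sites of mouse C2C12 cells, with at least 260 reads over 26 libraries. Of 43 such symbols 42 passed, out of 15955 symbols with at least 1 read and 10056 symbols with at least 260. Hnrnph2, with 28 reads, did not pass. The 42 members were 11 SR genes, 19 hnRNP genes, 8 genes of the Sm ring and 4 genes of the U1 and U2 snRNPs. Sfrs18, an SR-related gene now called Pnisr, is counted here with the SR genes.

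Introns are removed by the spliceosome, whose building blocks U1, U2, U4 and U5 each carry a small nuclear RNA inside a ring of Sm proteins. That ring is put together in the cytoplasm by the SMN complex and then returns to the nucleus. SR proteins bind exons and help to recruit the U1 and U2 snRNPs, while hnRNPs coat nascent RNA and often oppose exon inclusion, so that the balance of both families sets many splicing choices, in muscle as elsewhere. Members of both families also shuttle to the cytoplasm, where some of them affect mRNA export, stability and translation. All members are cytosolic or nuclear proteins with no signal sequence, so that their synthesis is not known to need the endoplasmic reticulum (ER).

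C2C12 is a line of mouse myoblasts, which fuse into muscle fibres in low serum, and the cells were separated into a membrane and a cytosol fraction. The gradient experiment split both fractions into polysomes and monosomes, in differentiating and in proliferating cells, with 2 replicates of each of the 8 groups. A further 8 libraries were of proliferating cells with no treatment or with 100 µg/ml puromycin for 0, 30 or 60 min, with 1 membrane and 1 cytosol library each, and 1 membrane and 1 cytosol library held whole fractions of proliferating cells. Proliferating cells also gave 3 RNA-seq libraries, 1 each of an insoluble, a membrane and a cytosol fraction. All cells were untransfected cells of 1 line. Proliferating cells were labelled as kept in 10% fetal bovine serum and differentiating polysome libraries as coming from 2% horse serum, but the labels of the differentiating monosome libraries state 10% fetal bovine serum. Nothing in the labels says that replicates were separate cultures, so that the spread between them may be technical.

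The 26 libraries were made with 3′READS+, which counts 1 read per captured transcript end, and levels are given as CPM (each count divided by its library's gene total and scaled to a common total), a scale that does not depend on transcript length. The 16 gradient libraries held 2966355 to 8239104 reads and the puromycin libraries 5508270 to 11633358. Of 10 chosen genes of differentiated muscle, Mymk had no counted reads under that symbol. The others followed the label of cell state. Their sums were 52760 and 9974 CPM in differentiating cells of replicates 1 and 2, against 269.7 and 286.6 CPM in proliferating cells. A list of 5 myoblast genes (Myod1, Myf5, Cdh15, Des and Vim) did not follow it. These summed to 1741 and 1539 CPM in differentiating cells against 909 and 763 CPM in proliferating cells. The muscle sum also differed widely between both differentiating replicates. Myog, the transcription factor myogenin, stood at 421.9 and 103.8 CPM in differentiating cells against 2.37 and 0.55 CPM in proliferating cells. The fractions matched theirs too, as 6 chaperones of the ER lumen summed to 1116 to 4702 CPM in membrane libraries and 96.4 to 394.3 CPM in cytosol libraries.

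The members spanned a wide range of levels. Srsf2, the SR protein long known as SC35, had the highest mean over the 26 libraries, 1179.2 CPM. The Sm proteins Snrpf (863.3 CPM), Snrpd3 (600.8 CPM) and Snrpe (511.5 CPM), the hnRNP gene Hnrnpab (716.0 CPM) and Snrpa1 (505.0 CPM), the A′ protein of the U2 snRNP, followed. At the low end stood Hnrnpul1 (1.62 CPM) and Snrpc (2.08 CPM), the C protein of the U1 snRNP. By role, the median of the members' mean levels was 358.1 CPM in the Sm ring, 147.7 CPM in the U1 and U2 group, 139.9 CPM among hnRNPs and 66.0 CPM among SR genes.

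Several members with few 3′ end reads had many reads by RNA-seq. In whole cytosol Hnrnpk, an abundant poly(C)-binding hnRNP, had 3.40 CPM by 3′ end counting, while the RNA-seq table held 2666 of its 3′ UTR reads, or 603.8 CPM. The Sm gene Snrpg likewise had 4.59 against 229.4 CPM, Hnrnpf 6.97 against 416.2 CPM and Hnrnph1 10.2 against 346.9 CPM. Snrpf showed the reverse, 1882 CPM by 3′ ends against 35.3 CPM by RNA-seq. The assays count different parts of a transcript, so these pairs are shown to mark members whose 3′ end counts rest on few reads and are not tests. Hnrnpa1 needs a caution of its own, since both of its listed poly(A) sites are also listed under the predicted genes Gm10052 and Gm5643, and its reads may include those of near-identical copies. The sites of Snrpn are shared with Snurf, which is made from the same transcript. Sfrs18 shares listed positions on the opposite strand with 4930528A17Rik, and 6.53% of its reads lay on that strand.

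In the cytosol of proliferating cells, the level of many of these mRNAs differed between polysomes and monosomes, and each that passed the test was on the polysome side. Of the 42 members 22 were higher in polysomes than in monosomes and 0 were lower, while 11.5% of all 11178 genes tested were higher and 12.8% lower. The quasi-likelihood test of edgeR was used, adjusted over all genes by Benjamini and Hochberg's method at 0.05, and "higher" or "lower" is used of members that passed it. The median log2 ratio of polysome to monosome was 1.27 over the members against -0.02 over all genes, and 37 of 42 members lay above 0. The calls were spread over the roles, with 7 of 11 SR genes, 10 of 19 hnRNP genes, 3 of 8 Sm genes and 2 of 4 genes of the U1 and U2 snRNPs. In differentiating cytosol 17 members were higher in polysomes and 1 was lower, beside 12.6% and 11.3% of all genes, with a median of 1.02 against 0.07. By their labels the polysome and monosome libraries of differentiating cells also differ in serum. If these labels hold, serum and gradient part cannot be told apart in either fraction of differentiating cells.

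**Figure D1:**
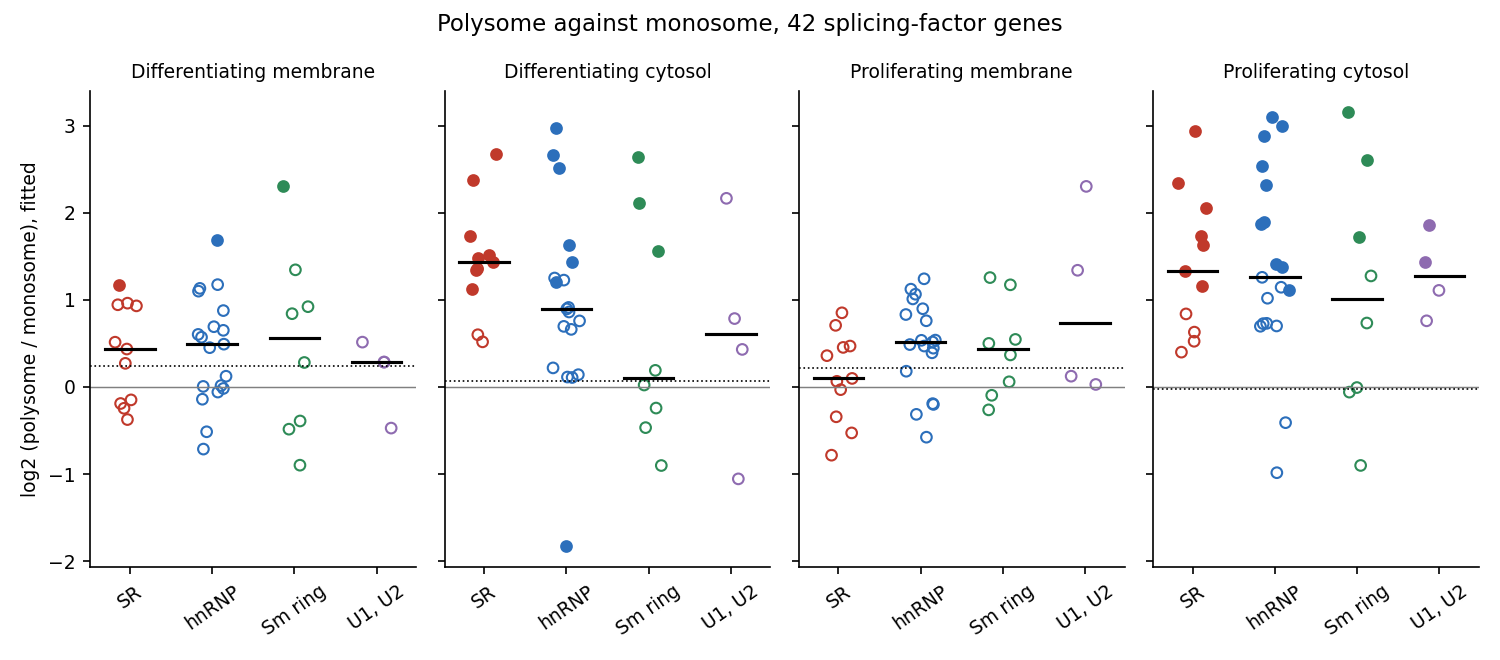
Log2 ratio of polysome to monosome, as fitted, for each of the 42 members, by role on the x axis and with 1 panel for each combination of cell state and fraction. Filled points passed the test, bars mark the median of a role and the dotted line the median of all 11178 genes. In proliferating cytosol 22 points are filled and in proliferating membrane 0.

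Srsf2 carried most SR reads and had the largest polysome to monosome difference of them in proliferating cytosol, with 2812 and 2508 CPM in polysomes of replicates 1 and 2 against 326 and 331 CPM in monosomes. Both polysome libraries lay far above both monosome libraries, a log2 difference of 2.94 (SE 0.32, edgeR adjusted p = 0.000208). In differentiating cytosol the gene had 1041 and 1094 CPM in polysomes and 167 and 104 CPM in monosomes, a log2 difference of 2.68 (SE 0.32, edgeR adjusted p = 0.000293). Srsf5, first described in regenerating liver, followed with 152 and 104 CPM in proliferating cytosol polysomes and 21.9 and 26.3 CPM in monosomes (log2 2.34, SE 0.44, edgeR adjusted p = 0.0025). Srsf3, the smallest SR protein, had 373 and 421 CPM against 88.2 and 93.4 CPM (log2 2.06, SE 0.29, edgeR adjusted p = 0.000497), and Srsf1, the founding member also known as SF2/ASF, had 213 and 225 CPM against 54.4 and 81.1 CPM (log2 1.63, SE 0.28, edgeR adjusted p = 0.00139). All 11 SR genes had a positive log2 ratio in the cytosol of both cell states, with medians of 1.33 in proliferating and 1.43 in differentiating cells.

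Among hnRNPs Hnrnpa0, Hnrnpa2b1 and Hnrnpab had the largest differences in proliferating cytosol. Hnrnpa2b1, which encodes the A2 and B1 proteins, had 710.1 and 731 CPM in proliferating cytosol polysomes against 73.7 and 98.3 CPM in monosomes, a log2 difference of 3.00 (SE 0.32, edgeR adjusted p = 0.000196). Hnrnpa0, a related gene without introns, had 213 and 133 CPM against 15.6 and 22.97 CPM (log2 3.10, SE 0.38, edgeR adjusted p = 0.000255). Hnrnpab, a shuttling protein of the A/B type, had 1357 and 1797 CPM against 141 and 270.2 CPM (log2 2.88, SE 0.40, edgeR adjusted p = 0.000419). All 3 genes were also higher in polysomes of differentiating cytosol, where Hnrnpab had 779 and 779 CPM in polysomes and 92.9 and 68.1 CPM in monosomes (log2 2.98, SE 0.40, edgeR adjusted p = 0.000382), and log2 differences were 2.67 for Hnrnpa2b1 and 2.51 for Hnrnpa0.

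Hnrnpa1, the best-studied antagonist of SR proteins in exon choice, went the other way. It was the 1 member lower in polysomes of differentiating cytosol, with 119 and 139.8 CPM in polysomes against 241 and 492 CPM in monosomes and a log2 difference of -1.82 (SE 0.39, edgeR adjusted p = 0.0049). Both polysome libraries were below both monosome libraries, but the monosome values of replicates 1 and 2 were themselves far apart, and without monosome replicate 2 the difference was -1.17 and was not called. In proliferating cytosol its polysome values of 326 and 306 CPM lay close to or below its monosome values of 486 and 306 CPM (log2 -0.41, SE 0.38, edgeR adjusted p = 0.468).

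The Sm ring split into members that were higher in polysomes and members that were not called, although the encoded proteins sit side by side in 1 ring. Snrpb, which encodes the B and B′ proteins, had 248 and 387 CPM in proliferating cytosol polysomes and 23.2 and 45.1 CPM in monosomes, the largest member difference in that comparison at log2 3.15 (SE 0.48, edgeR adjusted p = 0.000717). Snrpd3 had 1410.3 and 1240.5 CPM against 168 and 248 CPM (log2 2.61, SE 0.42, edgeR adjusted p = 0.000893), and Snrpd1 was called as well at log2 1.72. Snrpf, the most abundant Sm mRNA, had 1702 and 1804 CPM in polysomes and 1654 and 1694 CPM in monosomes, a log2 difference of -0.01 (SE 0.27, edgeR adjusted p = 0.998). Snrpe had 627 and 958 CPM against 686 and 889 CPM (log2 -0.06, SE 0.46, edgeR adjusted p = 0.95), and Snrpg had 12.04 and 7.39 CPM against 17.7 and 16.8 CPM (log2 -0.90, SE 0.44, edgeR adjusted p = 0.155). Polysome and monosome values of Snrpe and Snrpf overlapped or nearly touched. The order was similar in differentiating cytosol, with 2.64 for Snrpb, 2.11 for Snrpd3, 1.56 for Snrpd1, 0.02 for Snrpf, -0.24 for Snrpg and -0.90 for Snrpe. With the replicate block Snrpg was lower in polysomes of proliferating cytosol at -0.89 (edgeR adjusted p with the block = 0.0368) and Snrpe in differentiating cytosol at -0.94 (edgeR adjusted p with the block = 0.000887), while Snrpd2 (1.24) and Snrpn (0.71) were higher in proliferating cytosol. No test set these Sm genes against each other.

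Of the U1 and U2 proteins, Snrpa1 had 1004 and 1069 CPM in proliferating cytosol polysomes and 334 and 399 CPM in monosomes (log2 1.43, SE 0.36, edgeR adjusted p = 0.0118). That call was lost without proliferating cytosol polysome replicate 2 (log2 1.39) and without monosome replicate 1 (log2 1.35). Snrpa, the U1 snRNP A protein, was also called at log2 1.86, and lost its call without monosome replicate 2 at 1.49. Snrpb2, the B″ protein of the U2 snRNP, had log2 differences of 0.76 in proliferating and -1.05 in differentiating cytosol, neither of them called. With the replicate number as a block both were, at 0.75 (edgeR adjusted p with the block = 0.00884) and -1.06 (edgeR adjusted p with the block = 0.000373).

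**Figure D2:**
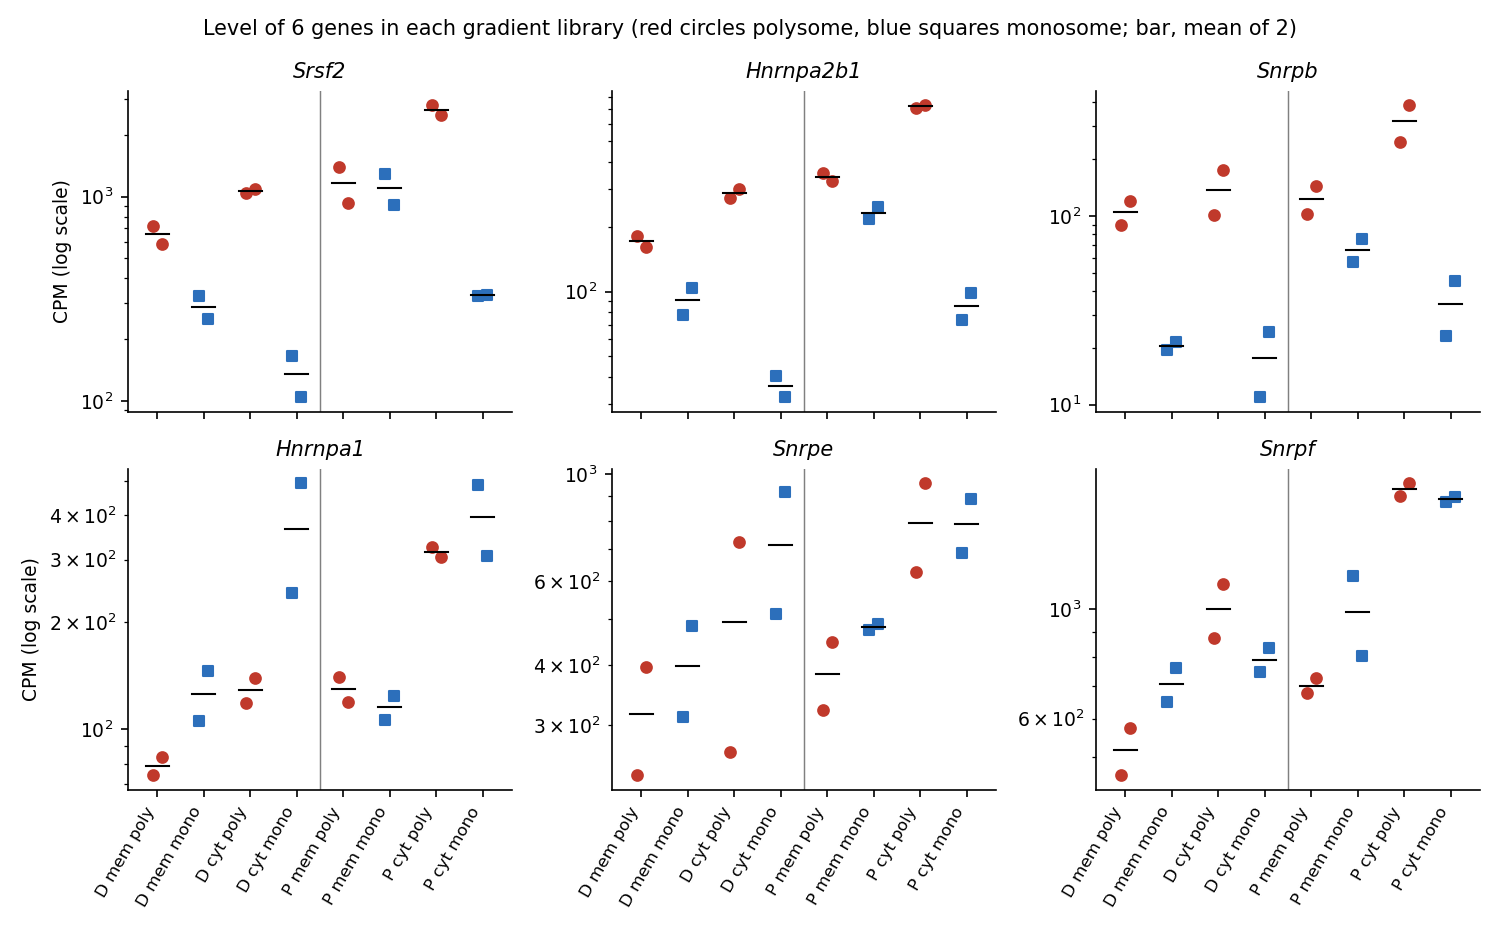
Level of Srsf2, Hnrnpa2b1, Snrpb, Hnrnpa1, Snrpe and Snrpf in each of the 16 gradient libraries, in CPM on a log axis, with polysome libraries as red circles, monosome libraries as blue squares and bars for the mean of 2 (D, differentiating; P, proliferating; mem, membrane; cyt, cytosol). In the cytosol of both states the polysome points of Srsf2, Hnrnpa2b1 and Snrpb lie above the monosome points, while those of Hnrnpa1 and Snrpe overlap with them or lie close to them in proliferating cytosol.

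Of the 22 calls in proliferating cytosol 13 held in every alternative tried, those of Srsf1, Srsf2, Srsf3, Srsf5, Hnrnpa0, Hnrnpa2b1, Hnrnpab, Hnrnpc, Hnrnpul2, Hnrpll, Snrpb, Snrpd1 and Snrpd3. Of the 18 in differentiating cytosol 11 did. With the replicate block 29 members were higher and 1 was lower in polysomes of proliferating cytosol, beside 23.7% and 24.3% of all genes, and 23 were higher and 3 lower in differentiating cytosol, beside 24.7% and 21.5%. The main count for proliferating cytosol fell to 14 without proliferating cytosol polysome replicate 2 and without monosome replicate 1. Monosome libraries also held more of a list of 6 noncoding transcripts, 4 of which were tested. These were Malat1, Neat1 and Meg3, and Gas5, Snhg1 and Snhg3, which host small nucleolar RNAs. They summed to 73.7 to 184.7 CPM in polysome libraries against 569.2 to 1944 CPM in monosome libraries over both states and fractions. The part of these RNAs in the members' ratios was not tested.

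In the membrane fraction few genes of any kind were called between polysomes and monosomes without the replicate block. In proliferating membrane libraries 0 of 42 members were called, beside 0.796% of all genes. The unadjusted p was under 0.05 for 8 of them, beside 1573 of 11178 genes. The DESeq2 test called 1 higher, beside 1.35% of all genes. The members' median log2 ratio was 0.46 against 0.22 over all genes. In differentiating membrane 3 members were higher in polysomes, beside 2.05% of all genes. Srsf2 had 722 and 588 CPM in membrane polysomes and 326 and 251 CPM in membrane monosomes there (log2 1.18, SE 0.31, edgeR adjusted p = 0.0493). Hnrnpab had 479 and 395 CPM against 119.8 and 147 CPM (log2 1.69, SE 0.38, edgeR adjusted p = 0.03) and Snrpb 89.2 and 121 CPM against 19.6 and 21.5 CPM (log2 2.31, SE 0.47, edgeR adjusted p = 0.0211). Leaving out any 1 of the 4 libraries ended all 3 calls, with log2 values of 0.93 to 1.37 for Srsf2, 1.46 to 1.93 for Hnrnpab and 2.15 to 2.46 for Snrpb. The DESeq2 test called 6, beside 3.68% of all genes. Srsf2 was not called with DESeq2 size factors or with no filter on low counts.

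Replicate number 1 and replicate number 2 deviated together across the groups of a cell state, and with the number as a block the membrane calls were more. The block gave 11 members higher in polysomes of proliferating membrane, beside 16.8% of all genes, and 13 in differentiating membrane, beside 20.3%. In proliferating membrane these were led by Snrpa1 at log2 1.36 (SE 0.24, edgeR adjusted p with the block = 9.87e-05) and by Snrpb at log2 1.26 (SE 0.23, edgeR adjusted p with the block = 0.000108).

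The difference between fractions was tested directly, as the polysome ratio in membrane minus that in cytosol of proliferating cells. It was negative for 37 of 42 members, with a median of -0.98 against 0.11 over all genes, and 7 members were called lower and 0 higher, beside 1.1% and 6.19% of all genes. The largest was that of Srsf5, at -2.87 (SE 0.61, edgeR adjusted p = 0.0107), with 120.4 and 54.4 CPM in membrane polysomes and 248 and 85.3 CPM in membrane monosomes, where it was not higher in polysomes. Srsf2 had 1403 and 929 CPM in membrane polysomes and 1288 and 912 CPM in membrane monosomes, a difference from the cytosol ratio of -2.49 (SE 0.43, edgeR adjusted p = 0.00366). Hnrnpa2b1 had 353 and 325 CPM against 217 and 247 CPM (difference -2.10, SE 0.43, edgeR adjusted p = 0.00873), and Hnrpll, an hnRNP L relative known for CD45 splicing in lymphocytes, 136 and 134 CPM against 249.7 and 268 CPM (difference -1.95, SE 0.39, edgeR adjusted p = 0.00853). Hnrnpa0, Snrpd3 and Hnrnpul2 were called too. The calls of Srsf2, Hnrnpa2b1 and Hnrpll held in every alternative tried.

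Between fractions, both membrane monosome values of Srsf2 lay above both cytosol monosome values (1288 and 912 CPM against 326 and 331 CPM), and both membrane polysome values lay below both cytosol polysome values (1403 and 929 CPM against 2812 and 2508 CPM). These single pairs were not tested. The calls of Srsf5 (-2.53 and -2.30 without membrane polysome replicate 2 and membrane monosome replicate 1), Hnrnpa0 (-2.12 to -1.70 without 1 of 4 libraries), Hnrnpul2 (-1.94 to -1.74 without 1 of 6) and Snrpd3 (-2.33 to -1.81 without 1 of 7) were lost when 1 library was left out. Without proliferating membrane polysome replicate 2 the count fell to 3, and without cytosol polysome replicate 1 or cytosol monosome replicate 1 to 4. The block raised the count of lower members to 18, beside 10.4% of all genes, and DESeq2 to 14, beside 3.15%. ER chaperones moved the other way on the same scale, with 4 of 6 called higher and a median of 2.95.

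Relative to the cytosol, some Sm ring mRNAs and Hnrnpa1 were lower in the membrane fraction. With polysomes and monosomes averaged, 7 of 8 Sm genes in proliferating and 8 of 8 in differentiating cells had a negative log2 ratio of membrane to cytosol, and 3 in each state were called lower. Over all 42 members 5 were higher and 6 lower in proliferating membrane, beside 23.2% and 11.5% of all genes, and 1 was higher and 5 lower in differentiating membrane, beside 14.2% and 5.49%. The members' medians were -0.21 in proliferating cells, against 0.17 over all genes, and -0.38 in differentiating cells, against 0.07. By role, the Sm ring had medians of -0.94 and -0.89 in proliferating and differentiating cells, the U1 and U2 group -0.58 and -0.62, SR genes -0.22 and -0.23, and hnRNPs 0.04 and -0.34.

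Snrpf had 675 and 725 CPM in membrane polysomes and 1171 and 805 CPM in membrane monosomes of proliferating cells, against 1702 and 1804 CPM and 1654 and 1694 CPM in the cytosol parts. All 4 membrane values lay below all 4 cytosol values, a log2 difference of -1.26 (SE 0.19, edgeR adjusted p = 0.000228), and the difference was -0.85 (SE 0.19, edgeR adjusted p = 0.00705) in differentiating cells. Snrpg was lower at log2 -1.41 (SE 0.32, edgeR adjusted p = 0.0038) in proliferating cells, with 3.28 and 5.64 CPM and 6.56 and 7.28 CPM in membrane polysomes and monosomes against 12.04 and 7.39 CPM and 17.7 and 16.8 CPM in cytosol ones. Snrpe was lower in both states, at log2 -1.07 (SE 0.33, edgeR adjusted p = 0.0222) in proliferating and -1.01 (SE 0.33, edgeR adjusted p = 0.0445) in differentiating cells. Snrpb and Snrpd3, both higher in cytosol polysomes, had membrane ratios of -0.38 and 0.04 in proliferating cells, not called, though Snrpb was lower with the block at -0.38 (edgeR adjusted p with the block = 0.0429).

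Hnrnpa1 had the most negative ratio of the 42 members in proliferating cells. It had 139.9 and 119.7 CPM in membrane polysomes and 106 and 124 CPM in membrane monosomes of proliferating cells, against 326 and 306 CPM and 486 and 306 CPM in the cytosol parts, and log2 differences of -1.74 (SE 0.28, edgeR adjusted p = 0.000285) in proliferating and -1.42 (SE 0.27, edgeR adjusted p = 0.00238) in differentiating cells. Snrpa1 was lower as well, at log2 -0.90 (SE 0.25, edgeR adjusted p = 0.0133) in proliferating and -0.84 (SE 0.25, edgeR adjusted p = 0.0319) in differentiating cells. Hnrnpa3, another A/B protein, was lower in proliferating membranes at -0.87 (SE 0.30, edgeR adjusted p = 0.0377).

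The 5 members higher in proliferating membranes were 3 hnRNPs and 2 SR genes. Hnrnpu, a large protein that ties RNA to chromatin, had 382 and 456 CPM in membrane polysomes and 369 and 379.7 CPM in membrane monosomes, against 229 and 337 CPM and 107 and 143 CPM in the cytosol parts, a log2 difference of 0.88 (SE 0.23, edgeR adjusted p = 0.0081). Sfrs18 had 11.8 and 12.5 CPM and 39.4 and 16.99 CPM in membrane polysomes and monosomes against 6.36 and 11 CPM and 5.73 and 5.74 CPM in cytosol ones (log2 1.15, SE 0.39, edgeR adjusted p = 0.0333). It was also the 1 member higher in differentiating membranes, at 1.37 (SE 0.43, edgeR adjusted p = 0.0392). Hnrnpa0 (0.76), Srsf5 (0.85) and Hnrpll (0.56) completed the set. Srsf2 had no clear side, at 0.05 in proliferating cells and -0.14 with DESeq2 size factors, nor had Hnrnpab at -0.34.

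**Figure D3:**
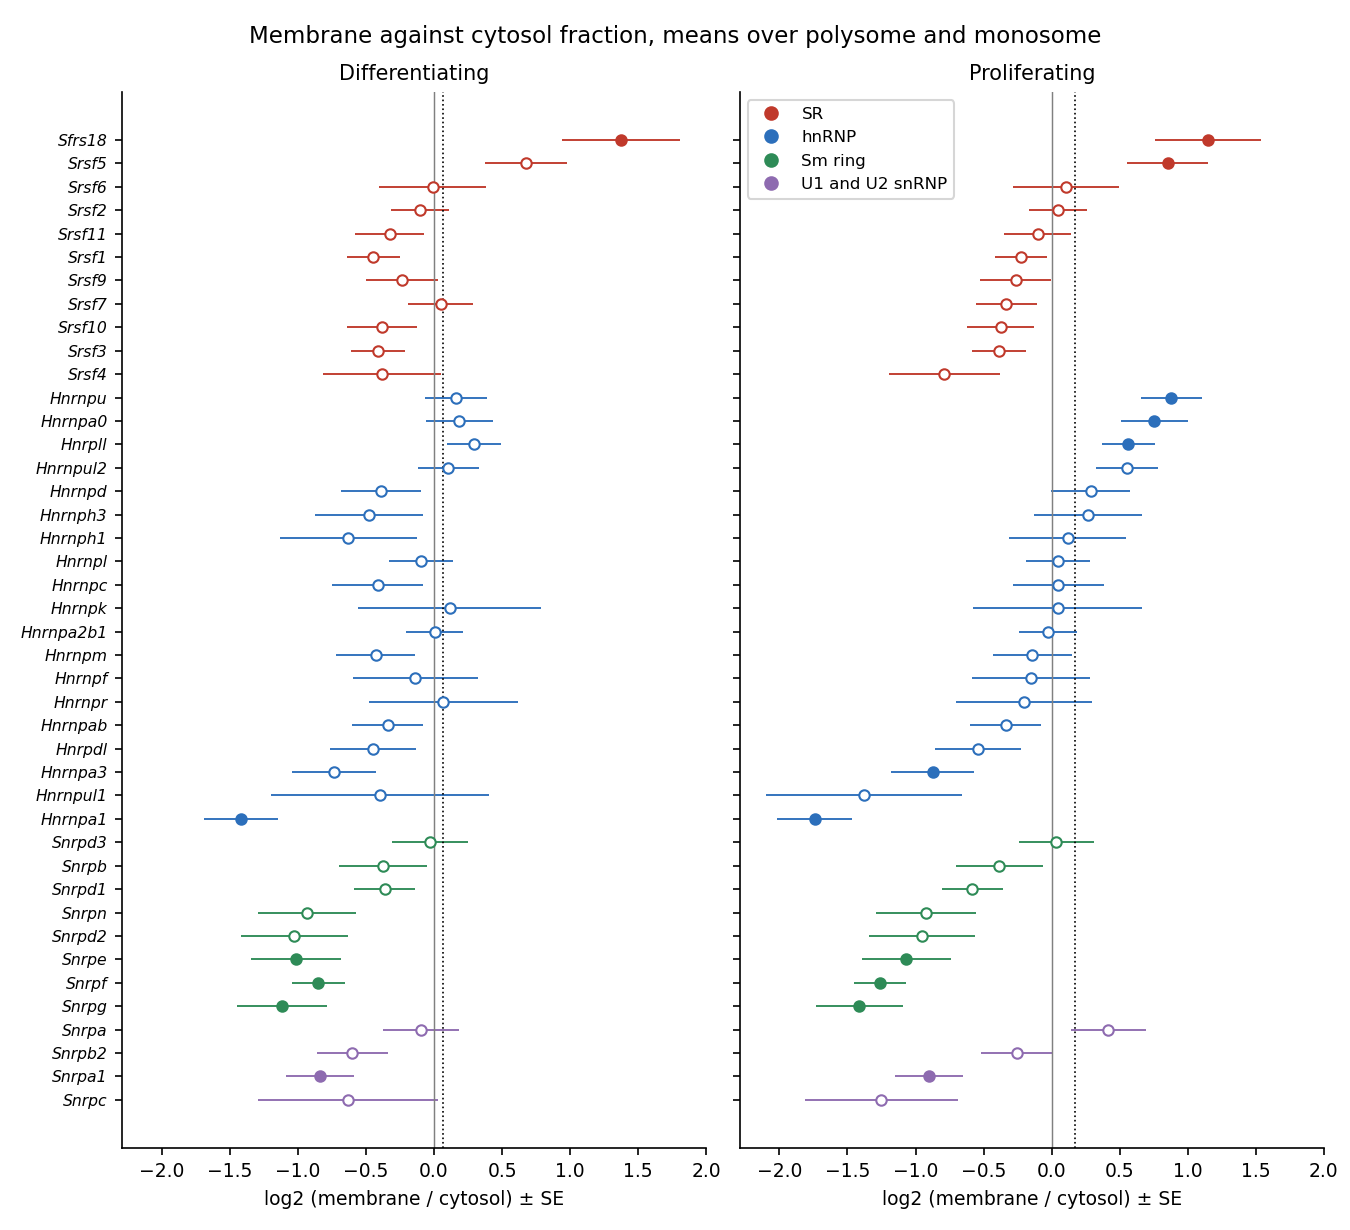
Log2 ratio of membrane to cytosol with its SE for each member, grouped by role and ordered within a role by the proliferating value, in differentiating cells on the left and proliferating cells on the right. Filled points passed the test, colours give the role and the dotted line is the median of all genes. Hnrnpa1 and the Sm genes Snrpf, Snrpg and Snrpe lie to the left of 0 in both panels, while Sfrs18 lies to the right.

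The upward side depended on scaling and on the filter. The median of all genes was 0.17 with TMM scaling and -0.0039 with DESeq2 size factors in proliferating cells, and with those factors 1 member (Hnrnpu) was higher and 10 were lower, beside 19.9% and 16.2% of all genes. With no filter on low counts 0 were higher and 10 lower, beside 13.2% and 11.4%. In differentiating cells they gave 0 higher and 6 lower, beside 13% and 7.84%, and the DESeq2 test gave 1 higher and 11 lower, beside 14.2% and 10.2%. With the replicate block 7 were higher and 15 lower in proliferating cells and 2 higher and 13 lower in differentiating cells, beside 33.6% and 22.6%, and 25.1% and 18.3%, of all genes. The call of Snrpf held in every alternative in both states, and those of Snrpa1 and Snrpg in proliferating cells. That of Hnrnpa1 held in both states in every alternative that could test it, but with shared positions left out the gene had no reads to test. Leaving out 1 library brought the proliferating count to 5 (without membrane polysome replicate 1 or cytosol polysome replicate 2), 6 (without cytosol monosome replicate 2) or 7 (without cytosol monosome replicate 1). The differentiating count was 3 without membrane polysome replicate 2, cytosol monosome replicate 1 or either membrane monosome library. Sfrs18 (0.61 to 1.28), Hnrnpa0 (0.42 to 0.75), Srsf5 (0.21 to 1.00), Hnrpll (0.37 to 0.58), Snrpe (-1.03 to -0.99) and Hnrnpa3 (-1.02 to -0.67) each lost their call in proliferating cells without 1 of 3 to 8 libraries. In differentiating cells Snrpe (-1.16 to -0.65), Snrpg (-1.24 to -0.95), Snrpa1 (-0.92 to -0.67) and Sfrs18 (1.05 to 1.49) did so without 1 of 5 to 7 libraries. Hnrnpu was not called with no filter on low counts (log2 0.64), without membrane polysome replicate 2 (log2 0.67) or membrane monosome replicate 1 (log2 0.68). The difference of the membrane ratio between differentiating and proliferating cells was called by edgeR for 0 of 42 members, beside 0% of all genes. Its unadjusted p was under 0.05 for 1 member, beside 670 of 11178 genes. DESeq2 called 0 members, beside 0.116% of all genes.

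In single libraries of whole fractions most members had fewer CPM in membrane than in cytosol. Of the 39 members with at least 1 CPM in all 10 libraries of whole or puromycin-series fractions, 2 had more CPM in whole membrane than in whole cytosol, Hnrnpu and Sfrs18. The median log2 ratio of the 39 was -1.01 against -0.25 over 8311 genes, and that of the Sm ring was -1.17. Snrpf had 801 CPM in whole membrane against 1882 CPM in whole cytosol, and Srsf2 had 761 CPM against 1743 CPM. There is 1 library of each, so these values have no replicate check.

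RNA-seq of proliferating cells added an insoluble fraction, with 1 library each and reads counted in 3′ UTRs. Among 35 members with at least 20 reads, 3 had a membrane to cytosol ratio above 1, 0 were at least 2-fold higher in membrane and 7 at least 2-fold lower, beside 20.9% and 13.9% of 8001 genes. The median log2 ratio was -0.56 for the members and -0.18 for all genes. The median log2 ratio of insoluble fraction to cytosol was 0.68 for SR genes and 0.29 for hnRNPs, but -1.09 for U1 and U2 genes and -2.01 for the Sm ring, against 0.31 for all genes, and 5 of 5 Sm genes were at least 2-fold lower. Values ran from -1.40 to 1.90 for SR genes, -1.62 to 1.46 for hnRNPs and -1.38 to -0.069 for U1 and U2 genes, and these ranges overlapped. The Sm ring, at -2.71 to -1.57, overlapped only with the hnRNPs. Among all 35 members 6 were at least 2-fold higher and 9 at least 2-fold lower in the insoluble fraction, beside 33.4% and 17.2% of genes. Srsf5 (log2 1.90), Srsf11 (1.86), Hnrnph1 (1.46), Hnrpdl (1.40) and Hnrnpu (1.34) stood highest, and Snrpg (-2.71), Snrpf (-2.33) and Snrpe (-2.01) lowest. The labels do not say what the insoluble fraction contains.

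Puromycin, which releases nascent chains and so takes ribosomes off mRNAs, was used to ask which mRNAs stay on membranes when translation ends. The members' membrane to cytosol ratio was in most cases larger after 30 and 60 min, though no single slope passed the test. The median log2 ratio of 8 Sm genes was -1.18 untreated, -1.22 at 0 min, -0.56 at 30 min and -0.43 at 60 min, and that of 11 SR genes was -0.61, -0.27, 0.05 and 0.14. The 3 U1 and U2 genes had -0.34, -0.65, -0.23 and -0.18, and 17 hnRNP genes had -0.28, -0.16, -0.25 and -0.20. Over all 8311 genes the median was -0.01, 0.02, 0.17 and 0.19. Fitted per 30 min of exposure, 35 of 41 members had a positive slope, including 11 of 11 SR and 8 of 8 Sm genes, with a median of 0.25 against 0.11 over all genes.

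For single members edgeR's test gave 0 of 41 members, beside 0% of 9921 genes, and DESeq2 gave 0, beside 12%. An unadjusted p under 0.05 in edgeR's test was reached by 6 members, beside 2535 of 9921 genes. Snrpn, a paralog of Snrpb from an imprinted locus, had 8.17, 6.72, 9.05 and 13.8 CPM in membrane libraries of untreated cells and of 0, 30 and 60 min, against 17.97, 19.7, 11.6 and 9.27 CPM in cytosol libraries, a slope of 0.91 (SE 0.22, edgeR adjusted p = 0.11). Hnrnpa0 had 71.2, 45.5, 69.9 and 83.4 CPM in membrane and 80.97, 96.7, 42.2 and 45.8 CPM in cytosol libraries in the same order (slope 0.76, SE 0.25, edgeR adjusted p = 0.137). Its membrane level at 30 and 60 min was above its cytosol level, while untreated and at 0 min it was below. Snrpd2 (0.41, edgeR adjusted p = 0.153) and Srsf7 (0.51, edgeR adjusted p = 0.17) had the next lowest p among the positive slopes.

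Hnrnpu had the opposite sign, with 522, 316, 282 and 294 CPM in membrane libraries and 248, 169.8, 303 and 337 CPM in cytosol libraries (slope -0.69, SE 0.18, edgeR adjusted p = 0.11). Its membrane level was above its cytosol level untreated and at 0 min, and below it at 30 and 60 min. Hnrnpl, an hnRNP that binds CA repeats, had a slope of -0.33 (edgeR adjusted p = 0.238), Snrpa -0.34 (edgeR adjusted p = 0.241) and Hnrnph1 -0.48 (edgeR adjusted p = 0.315).

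**Figure D4:**
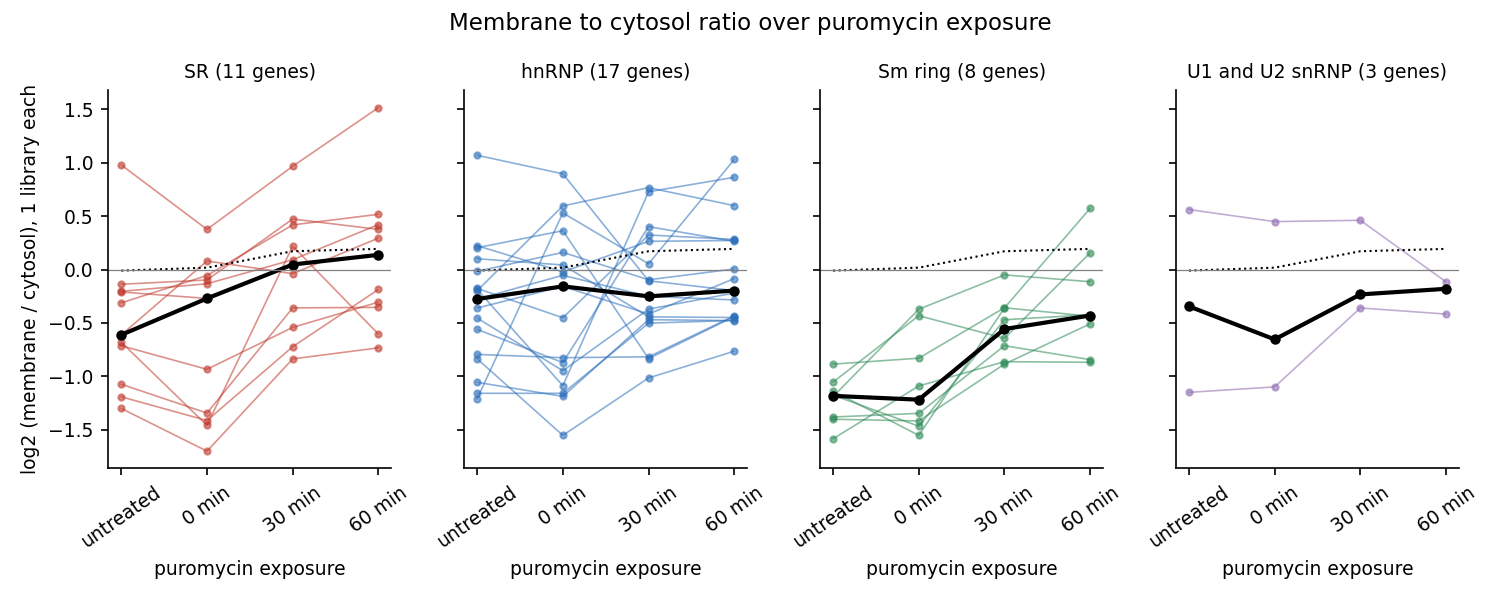
Log2 ratio of membrane to cytosol for 39 members in untreated cells and at 0, 30 and 60 min of puromycin, with 1 panel for each role and 1 line for each gene. The black line is the median of a role and the dotted line the median of 8311 genes. The medians of the Sm ring and SR panels lie further up at 30 and 60 min than untreated, and that of the hnRNP panel stays near -0.2.

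When the 30 and 60 min libraries were set against the untreated and 0 min libraries, 16 of 41 members were called, 13 higher and 3 lower, beside 18.9% and 20.5% of all genes. No exposure had a replicate. The 30 and 60 min pairs stood in for replicates of each other, as did the untreated and 0 min pairs, so these calls have no replicate check. The 13 were Hnrnpa0 (log2 1.35), Snrpn (1.36), Snrpd3 (0.79), Srsf3 (0.77), Srsf7 (0.76), Snrpa1 (0.65), Srsf2 (0.63), Snrpd2 (0.63), Snrpb (0.63), Hnrnpab (0.59), Hnrpdl (0.56), Hnrpll (0.53) and Snrpe (0.50), and the 3 were Hnrnpu (-1.22), Hnrnph1 (-0.998) and Hnrnpl (-0.60). All 6 ER chaperones had negative slopes in the main fit with a median of -2.66. Because each library is scaled to its own total, less of such abundant transcripts and more of the others in a membrane library cannot be told apart on this scale.

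The level of members over exposure, with both fractions together, was called for 0 of 41, beside 0.423% of all genes, and for 0 by DESeq2, beside 1.16%. In edgeR's test 3 members had an unadjusted p under 0.05, beside 850 of 9921 genes. The median slope was -0.12 per 30 min against 0.04 over all genes. All members summed to 16533, 11405, 10019 and 10457 CPM in cytosol libraries of untreated cells and of 0, 30 and 60 min. In membrane libraries they summed to 9313, 6331, 7509 and 8039 CPM. The largest step in both fractions lay between untreated and 0 min, which the fit codes alike. Snrpf had 349, 285, 208 and 225 CPM in membrane and 1048, 607, 378 and 411 CPM in cytosol libraries of untreated cells and of 0, 30 and 60 min (slope -0.45, SE 0.14, edgeR adjusted p = 0.358). Its values at 30 and 60 min were below those of untreated cells in both fractions. The next lowest p among negative slopes were those of Hnrnpd (-0.22), Hnrnpa3 (-0.25) and Snrpd1 (-0.20), and among positive slopes those of Srsf5 (0.14), Hnrnpul1 (0.19), Srsf7 (0.11) and Hnrpdl (0.06, and -0.0033 with DESeq2 size factors).

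Between cell states, levels of splicing-factor mRNAs differed in each role when single libraries were compared. Taking the 8 libraries of a state as separate, 25 of 42 members were lower and 1 was higher, beside 19.2% and 16.3% of all genes, and 40 of 42 had a negative log2 ratio. The median was -0.62 against -0.09 over all genes. Libraries of 1 replicate number are not independent, though, and with them summed to 2 samples per state edgeR called 0 members, beside 4.06% of all genes. In the comparison of single libraries the lower members were 8 of 11 SR genes, 11 of 19 hnRNPs, 4 of 8 Sm genes and 2 of 4 genes of the U1 and U2 snRNPs. In a bulk sample, a smaller share of cells that express a gene and less RNA per cell cannot be told apart.

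Over single libraries Srsf1, with the lowest p, was lower in differentiating cells. Its libraries summed per state and replicate number gave 57.03 and 58.9 CPM in differentiating cells of replicates 1 and 2 against 147 and 132 CPM in proliferating cells, and the log2 difference over the 16 libraries was -1.18 (SE 0.14, edgeR adjusted p = 3.68e-05). Hnrnpu had 106 and 124 CPM against 294 and 339 CPM (log2 -1.25, SE 0.16, edgeR adjusted p = 7.25e-05), and Snrpd1 had 182 and 249 CPM against 515 and 547 CPM (log2 -1.23, SE 0.16, edgeR adjusted p = 7.88e-05). Srsf2 had 631 and 602 CPM in differentiating and 1556 and 1242 CPM in proliferating cells (log2 -1.13, SE 0.15, edgeR adjusted p = 0.000108). For each of these 4 genes both differentiating sums lay below both proliferating sums. Snrpa1 (278 and 228 CPM against 546 and 604 CPM) and Hnrnpab (421 and 414 CPM against 685 and 855 CPM) did the same.

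Snrpn was the 1 member higher in differentiating cells over single libraries, with 26.9 and 16.6 CPM against 14.8 and 13.2 CPM in proliferating cells (log2 0.87, SE 0.26, edgeR adjusted p = 0.0175). Both differentiating sums were above both proliferating ones. Its call was lost without differentiating membrane polysome replicate 1 (log2 0.70), without cytosol monosome replicate 1 (0.71) or without membrane monosome replicate 1 (0.69), and its reads are shared with Snurf. Over single libraries Snrpb, its close paralog, had the opposite sign and was lower (64.7 and 103 CPM against 116 and 175 CPM, log2 -0.84, SE 0.23, edgeR adjusted p = 0.0117). Summed per state and number neither was called, with log2 0.92 for Snrpn (edgeR adjusted p = 0.242) and -0.55 for Snrpb (edgeR adjusted p = 0.435).

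**Figure D5:**
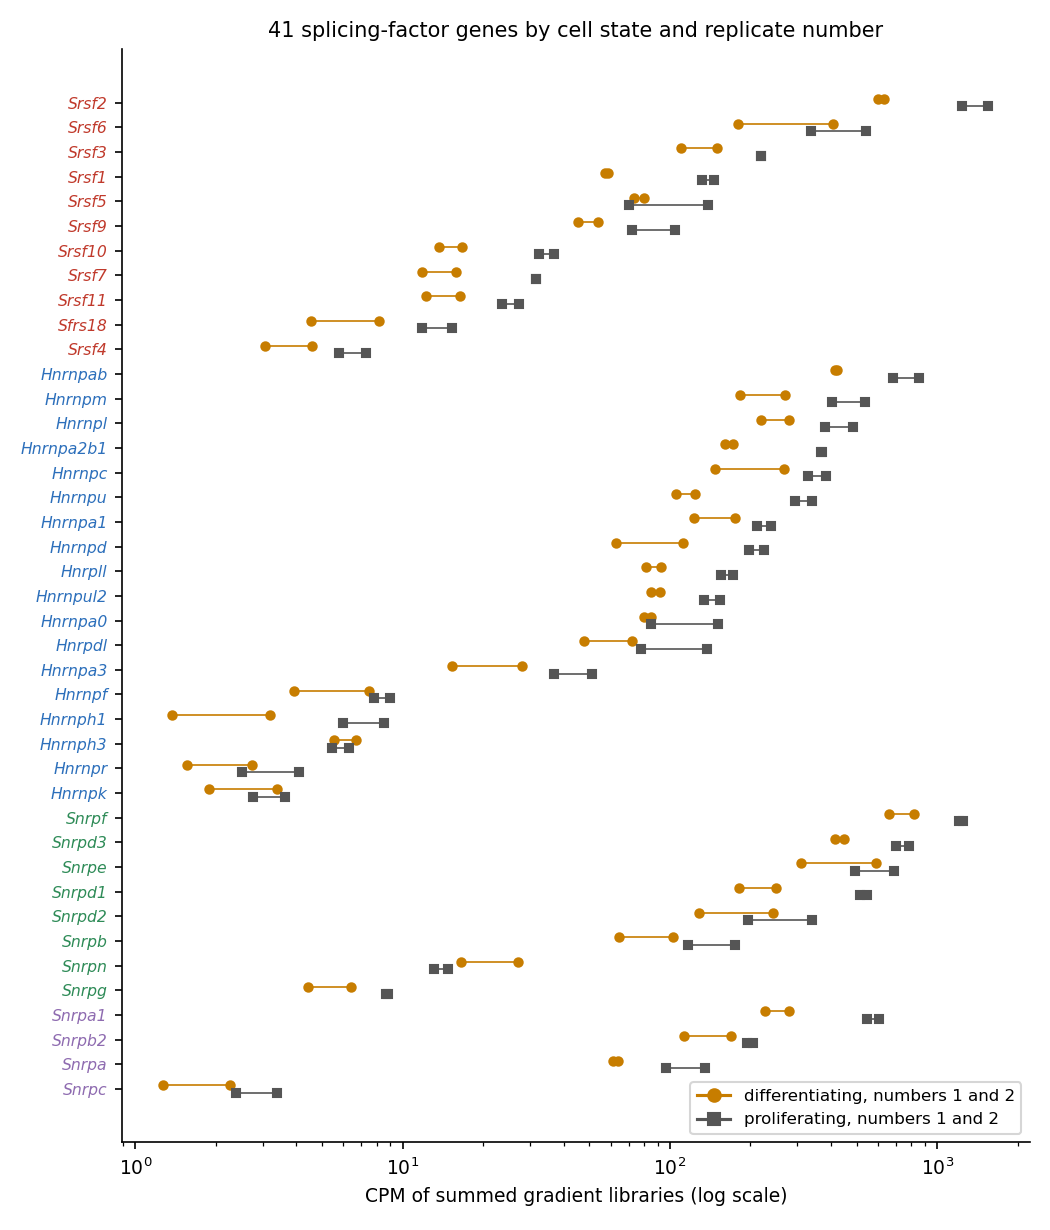
CPM on a log axis of 41 members in differentiating and proliferating cells, as the 8 gradient libraries of a state summed per replicate number, with 2 points per state and name colours for the roles. Both differentiating points lie below both proliferating points for 33 members and above them for Snrpn.

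The 8 libraries of a state came from replicates with only 2 numbers, and libraries of 1 number deviated together. Summed per state and number, 2 differentiating samples stand against 2 proliferating ones. On these sums edgeR's test called 0 of 42 members. The unadjusted p was under 0.05 for 11, beside 2450 of 11735 genes. On the same sums both differentiating values lay below both proliferating values for 33 of 41 members, beside 40.1% of 9939 genes, and above them for 1, beside 15.4%. The 7 members whose sums overlapped were Hnrnph3, Hnrnpk, Hnrnpr, Snrpd2, Snrpe, Srsf5 and Srsf6. Other lists moved beside this comparison on the same sums. The 6 noncoding transcripts had 271 and 338 CPM in differentiating cells against 582 and 849 CPM in proliferating cells, the 6 ER chaperones 1106 and 1007 CPM against 2192 and 2346 CPM, and the 5 myoblast genes lay above their proliferating sums, as given at the start. The stated serum of differentiating monosome libraries, and the large difference in muscle genes between both differentiating replicates, stand beside it as well, and the part of all these in the members' values was not tested.

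The polysome ratio in differentiating minus that in proliferating cytosol was called for 0 of 42 members by edgeR, beside 0% of all genes. DESeq2 also called 0, so that the count says nothing particular about the members. An unadjusted p under 0.05 was reached by 5, beside 368 of 11178 genes. By the labels, the differentiating ratio also holds the difference in serum. With the replicate block 3 were lower, beside 0.259% of all genes: Snrpb2 (-1.81), Snrpd2 (-1.72) and Hnrnpc (-1.501). Snrpd2 had 104 and 331 CPM in polysomes and 141 and 322 CPM in monosomes of differentiating cytosol, against 337 and 624 CPM and 146 and 234 CPM in proliferating cytosol. In differentiating cytosol the replicates of Snrpd2 lay further apart than its polysomes and monosomes did.

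Of the 42 members 19 had a pair of poly(A) sites abundant enough to compare a proximal with a distal end, out of 4554 genes with such a pair, and many Sm genes used 1 site for nearly all reads. The use of the distal site was tested in 5 comparisons, and 0 of 19 members were called by edgeR in each: membrane against cytosol in proliferating (beside 0.527% of all genes) and differentiating cells (0.022%), polysome against monosome in proliferating (0.11%) and differentiating cytosol (0.0659%), and differentiating against proliferating cells (1.54%). At an unadjusted p under 0.05 there were 4, 0, 2, 2 and 3 members in that order, beside 415, 280, 238, 349 and 601 of 4554 genes.

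The replicate block changed some of these. Hnrnpa1 ends at position 103075023 or 103075393 on the plus strand of chromosome 15 (mm9), 370 nt apart, and the distal end took 75.2 and 86.7% of both in membrane polysomes and 83.6 and 92.6% in membrane monosomes of proliferating cells, against 72.9 and 84.7% and 69.8 and 75.1% in the cytosol parts. The log2 difference in distal over proximal use was 0.89 (SE 0.34, edgeR adjusted p = 0.368) without and 0.89 (SE 0.20, edgeR adjusted p with the block = 0.000661) with the block, where 6.1% of all genes were called. In single libraries of whole fractions it was 94.6% in membrane and 87.1% in cytosol. The puromycin series had 96.1, 96.03, 91.5 and 89.5% in membrane and 84.9, 85.3, 82.95 and 82.3% in cytosol, untreated and at 0, 30 and 60 min. In each of these 5 pairs the membrane share lay above the cytosol share. In differentiating cytosol the distal share of Hnrnpa1 was 84.3 and 87.8% in polysomes and 69.7 and 70.2% in monosomes, a difference of 1.41 (SE 0.47, edgeR adjusted p = 0.386) without and 1.42 (SE 0.29, edgeR adjusted p with the block = 0.000132) with the block (3.12% of all genes called). Since both ends of Hnrnpa1 are shared with predicted genes, a change in the share of copies cannot be told apart from a change in site use.

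With the block Srsf1 also used its distal end more in proliferating membrane (0.73), at position 87867253 against 87864995 on the plus strand of chromosome 11, 2258 nt apart. Its distal share was 52.5 and 40.9% and 58.1 and 47.9% in membrane polysomes and monosomes, against 47.6 and 37.8% and 41.5 and 24.9% in the cytosol parts. Single whole fractions had 32.6% in membrane and 32.9% in cytosol. The puromycin series had 55.2, 39.3, 65.6 and 60.45% in membrane and 44.0, 48.6, 49.1 and 40.0% in cytosol, untreated and at 0, 30 and 60 min. In whole fractions and at 0 min the membrane share of Srsf1 was thus not above its cytosol share. Hnrnpc used its distal end less in polysomes of proliferating cytosol (-1.13, beside 1.76% of all genes), with 5.37 and 4.39% in polysomes and 13.1 and 7.64% in monosomes. Hnrnpa2b1, whose ends lie 1639 nt apart on chromosome 6, did so in differentiating cytosol (-1.21), with 9.25 and 16.5% in polysomes and 17.3 and 33.7% in monosomes. Between states the block called Hnrnpab (0.39) and Hnrnpu (-0.66), beside 10.2% of all genes, while the sums per state and number called 0. The table marks no gene regions, so whether these ends share 1 last exon was not analysed here.

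Other genes of splicing were followed in a list of 116 spliceosome, SMN complex and splicing-regulator genes, of which 108 were tested. In proliferating cytosol 28 were higher and 5 lower in polysomes, beside 11.5% and 12.8% of all genes, with a median of 0.48, among them the ubiquitin ligase Prpf19 (2.50), the hnRNP-like Raly (2.98) and the U2 snRNP protein Sf3b5 (2.43) on the higher side, and Lsm3 (-1.72), the SMN complex protein Gemin7 (-1.34) and Srrm1 (-1.35) on the lower. In differentiating cytosol 28 were higher and 7 lower, beside 12.6% and 11.3%, with a median of 0.46, and Tra2b, an SR-like exon activator, was among the higher ones at 1.68.

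Membrane against cytosol gave 10 higher and 22 lower of these 108 in proliferating cells, beside 23.2% and 11.5% of all genes. It gave 6 and 30 with DESeq2 size factors, and 5 and 28 of 113 with no filter on low counts. The helicase Ddx5 (1.09), Sf3b1 (1.09) and Gemin4 (1.21) led the higher side, and Gemin7 (-1.46), Lsm6 (-1.49) and Rbm17 (-1.47) the lower. In differentiating cells 2 were higher and 12 lower, beside 14.2% and 5.49%, with Lsm3 (-1.04) and Lsm6 (-1.33), relatives of Sm proteins that form the ring of U6, on the lower side. Over single libraries 49 were lower and 1 was higher in differentiating cells, beside 19.2% and 16.3%, with Lsm2 (-1.45), Gemin4 (-1.49) and Gemin5 (-1.48) lowest by p and Syf2 (0.69) the higher one, and a median of -0.49. Summed per state and number 0 of 110 were called, beside 4.06% of all genes. The difference of polysome ratios between fractions was called lower for 3, Tra2b (-1.40), the poly(C)-binding Pcbp1 (-1.68) and Sf3a2 (-1.40), and higher for 0, beside 1.1% and 6.19%.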

How the data were processed

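Read counts per poly(A) site and library, and RNA-seq read counts per 3′ UTR part, were used as the authors deposited them, per the file headers. The submitters' processing notes name mm9, cutadapt, Bowtie2 and STAR 2.5.2, and for the counting step the sources used here give no tool. Counts were summed per gene symbol over 125369 listed sites. Of 651 positions shared by several symbols, 7 entries were kept under a member and the rest left out. Libraries of 2966355 to 11633358 reads were scaled by TMM and tested by the robust quasi-likelihood test of edgeR 4.0.16 (R 4.3.3) after filterByExpr, with Benjamini-Hochberg adjustment over all genes at 0.05. The 16 gradient libraries shared 1 fit with 8 group means, membrane against cytosol being the mean over polysome and monosome. Site pairs lay at most 10000 nt apart, with at least 10 reads on average and 5% of them in the rarer site, and were fitted with a term per library. Puromycin exposure was fitted per 30 min with untreated as 0.

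Same-numbered libraries of a state deviated together (correlations of 0.602 to 0.827 over 12 pairs of groups), so the number was taken as pairing them, and blocked values are given beside named results whose call they change. Between states the correlations were lower but still positive (0.169 to 0.383), and the numbers were not taken as pairing libraries there. The labels do not say whether same-numbered libraries of both states share a batch. The scripts were tested on simulated counts. Named were up to 4 called members per direction with the lowest p, and the most abundant member of each role. Members, roles and lists were chosen with earlier results of these data known, and some members beyond that rule were named after their values were seen. Alternatives were DESeq2 1.42.0 and its size factors, no filter, leaving out libraries, and, added after seeing the data, leaving out shared positions and summing libraries per state and number.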

Additional observations from a re-analysis of the deposited data

Results flagged for a closer look

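For 7 members edgeR found that the log2 ratio of polysome to monosome was not the same in membrane as in cytosol of proliferating cells, in a test of that difference with Benjamini-Hochberg adjustment. On the log2 scale, membrane minus cytosol, the difference was -2.87 for Srsf5 (edgeR adjusted p = 0.0107), -2.49 for Srsf2 (0.00366), -2.10 for Hnrnpa2b1 (0.00873), -2.09 for Hnrnpa0 (0.021), -2.06 for Snrpd3 (0.0403), -1.95 for Hnrpll (0.00853) and -1.84 for Hnrnpul2 (0.0254). Snrpd3 had 789.8 and 546 CPM in membrane polysomes and 511 and 636 CPM in membrane monosomes, against 1410.3 and 1240.5 CPM and 168 and 248 CPM in the cytosol parts. Hnrnpul2, a relative of Hnrnpu, had 178 and 135 CPM and 152 and 134 CPM in membrane polysomes and monosomes, against 197 and 205 CPM and 39.8 and 36.2 CPM in cytosol ones. Hnrnpa0 had 194 and 94.7 CPM and 110.0 and 73.8 CPM, against 213 and 133 CPM and 15.6 and 22.97 CPM.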

How the results depend on the processing

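Counts of called members with the replicate block were 11 for polysome against monosome in proliferating membrane (0 without it), 13 in differentiating membrane (3), 22 and 15 for membrane against cytosol in proliferating and differentiating cells (11 and 6), 18 for the difference of polysome ratios between fractions (7) and 3 for that between states (0). For site use the block gave 2 for membrane against cytosol in proliferating cells, 1 and 2 for polysome against monosome in proliferating and differentiating cytosol and 2 between states, where each was 0. It moved no other count by over 1.5 times, with 30 and 26 for polysomes in proliferating and differentiating cytosol (22 and 18) and 32 between states (26). Those 32 were 1 higher and 31 lower, beside 2773 and 3412 of 11178 genes. That fit still took the 8 libraries of a state as separate. DESeq2 called 1 and 6 for polysomes in proliferating and differentiating membrane, 12 for membrane against cytosol in differentiating cells and 14 for the difference between fractions. Sums per state and number called 0 between states (26 over single libraries), and exposed against not exposed cells 16 for the puromycin ratio (0 per 30 min). Leaving out 1 library gave 14 to 20 and 13 to 16 for polysomes in proliferating and differentiating cytosol, 0 in either membrane, 5 to 12 and 3 to 5 for membrane against cytosol in proliferating and differentiating cells, 20 to 26 between states, 3 to 7 for the difference between fractions and 0 in the others.

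Values that changed sign were small. With DESeq2 size factors, no filter and DESeq2's test, in that order, Srsf2 had -0.14, -0.18 and -0.14 for membrane against cytosol in proliferating cells, Snrpf -0.058, -0.018 and -0.058 for the difference of polysome ratios between states, and Hnrnpab 0.078, 0.16 and 0.078 for that of membrane ratios. With size factors and DESeq2's test Snrpf had -0.16 and -0.16 for polysomes in differentiating cytosol, Hnrnpab -0.0040 and -0.0041 for the difference of polysome ratios between states, and Hnrpdl -0.0033 and -0.0036 for its puromycin level. Snrpf had 0.022 for polysomes in proliferating cytosol with no filter. Leaving out 1 library gave -0.048 to 0.042 and -0.062 to 0.15 for polysomes in proliferating and differentiating cytosol for Snrpf, -0.044 to 0.54 for Snrpa1 in differentiating membrane, -0.28 to 0.087 and -0.24 to 0.079 for membrane against cytosol in proliferating and differentiating cells for Srsf2, and -0.59 to 0.21 for the difference between fractions for Snrpa1. For polysome ratios between states the ranges were -0.54 to 0.094 for Srsf2, -0.063 to 0.15 for Snrpf and -0.40 to 0.48 for Hnrnpab. For membrane ratios between states they were -0.28 to 0.087 for Srsf2, -0.10 to 0.37 for Snrpa1 and -0.25 to 0.30 for Hnrnpab. The cause was not tested.

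Of 1670 values of single members under an alternative 1380 kept their direction and side of the threshold, 220 lost and 15 gained the call and 55 changed sign. With 2 libraries a group, a member that was not called may still differ. Members with few reads, such as Hnrnpul1 and Snrpc, carry the widest errors.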
